A study of Arabidopsis thaliana with 24 samples.

Results

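The genes described here are 9 membrane lipid desaturases of Arabidopsis thaliana, FAD2 to FAD8, ADS1 and ADS2, together with SENSITIVE TO FREEZING 2 (SFR2). They were taken from the deposited table by locus and make up 10 of its 32833 genes. The loci are AT3G12120 (FAD2), AT2G29980 (FAD3), AT4G27030 (FAD4), AT3G15850 (FAD5, listed there under its other name ADS3), AT4G30950 (FAD6), AT3G11170 (FAD7), AT5G05580 (FAD8), AT1G06080 (ADS1), AT2G31360 (ADS2) and AT3G06510 (SFR2). All 10 passed the filter on low counts, which 21428 genes passed in all. The libraries hold poly(A) RNA of whole seedlings grown on MS medium. Seedlings homozygous for the T-DNA insertion uap1-1, seedlings homozygous for the insertion uap1-2 and wild type (WT) were each kept at 4 °C for 24 h (cold) or left without cold treatment (control). All lines have the Col-0 background, and each of the 6 groups had 4 libraries that the labels call independent biological replicates. The series is about UAP1, named in its title as a splicing factor, in the cold response. Their age is given in 2 ways, as 11 days when cold began (12 when collected) in the design text and as 10 days in the extraction protocol.

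Desaturases insert double bonds into the fatty acid chains of membrane lipids, which keeps membranes fluid at low temperature. In Arabidopsis leaves FAD2 and FAD3 act in the endoplasmic reticulum and draw electrons from cytochrome b5, whereas FAD4 to FAD8 act on plastid lipids and draw them from ferredoxin. SFR2, in the outer envelope of the chloroplast, moves galactose between galactolipids and is needed for freezing tolerance.

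The library totals ran between 19289385 and 25501547 counts, and the first principal component of log2 CPM, with 65.1% of the variance, separated the cold from the control libraries. UAP1 is not among the gene names of the table, and the mutated locus was therefore not examined. Markers of leaf and root were read in every group. Over the 3 genotypes together, the 6 leaf markers summed to 11880–29766 FPKM in cold libraries and 14049–34906 FPKM in control libraries. The 11 root markers summed to 33.1–57.2 FPKM in cold libraries and 25.3–56.4 FPKM in control libraries, so both pooled ranges overlapped. Within uap1-2 the leaf sums were apart, at 11880–16349 FPKM in the cold and 16757–22501 FPKM in control. The mean leaf sum was lower in the cold in uap1-2 (14529 against 18893 FPKM) and in WT (17026 against 22143 FPKM). In uap1-1 it was higher in the cold (21847 against 16597 FPKM). Single leaf markers moved as well. LHCB2.1 and PSAD1 fell in every genotype, with log2 fold changes of −0.73 and −1.09 in uap1-1, −1.08 and −1.65 in uap1-2 and −1.51 and −1.80 in WT, RCA fell in uap1-2 with −0.53, and LHCB1.1 rose in uap1-1 with 1.18 (edgeR adjusted p of at most 0.0216). Scaled by library totals alone, the leaf markers had 1 higher and 2 lower in uap1-1, 0 higher and 5 lower in uap1-2 and 0 higher and 5 lower in WT. Root markers moved too. In WT SCR, WER and IRT1 rose, with log2 fold changes of 0.62, 0.71 and 1.58 (edgeR adjusted p of at most 0.0339). In uap1-1 SCR rose, with 0.72, whereas RHD6, WER and MYB36 fell, with −1.204, −0.86 and −1.51 (edgeR adjusted p of at most 0.0370). WER thus moved in opposite directions in WT and uap1-1. With library totals the root markers had 0 higher and 3 lower in uap1-1, 1 and 0 in uap1-2 and 1 and 0 in WT. SCR then lost its call in each genotype, and WER in WT. The 5 seed and embryo markers summed to 1.23–8.26 FPKM in cold libraries and 0.0281–0.329 FPKM in control libraries, with CRU3 at 0 in all 3 control groups and in the cold groups of uap1-1 and WT. They did not move as a set. In WT the means of OLEO1 and EM6 went from 0.0407 and 0.153 FPKM in control to 1.13 and 1.90 FPKM in the cold. SESA1 was at 0 in both WT groups, and ABI3 went from 0.0213 FPKM in WT control to 0 in WT cold. The part of these markers in the results below was not tested. In whole seedlings, fewer cells of a type and less RNA per cell cannot be told apart.

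Levels are given as FPKM (fragments scaled to exon length and library total) after TMM scaling, a factor per library that sets the bulk of genes level between libraries. Since FPKM is per length, members could be ordered within a group. In the cold ADS2 was the most abundant of the 10 transcripts, with means of 697 ± 75.8 FPKM in uap1-1, 660 ± 79.0 FPKM in uap1-2 and 686 ± 139 FPKM in WT (SD, n = 4 each). Without cold FAD2 was the most abundant, with means of 447 ± 24.6 FPKM in uap1-1, 498 ± 85.4 FPKM in uap1-2 and 608 ± 211 FPKM in WT (SD, n = 4 each). The least abundant member was ADS1 in the cold, between 18.6 and 19.8 FPKM on average, and FAD4 without cold, between 8.40 and 11.0 FPKM on average. In each of the 6 groups the libraries of the most abundant member did not overlap with those of the next. Below it, FAD2 and FAD6 overlapped in all 3 cold groups, FAD6 and ADS2 overlapped in all 3 control groups, and FAD5 and FAD7 overlapped in all 6 groups.

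**Figure D1:**
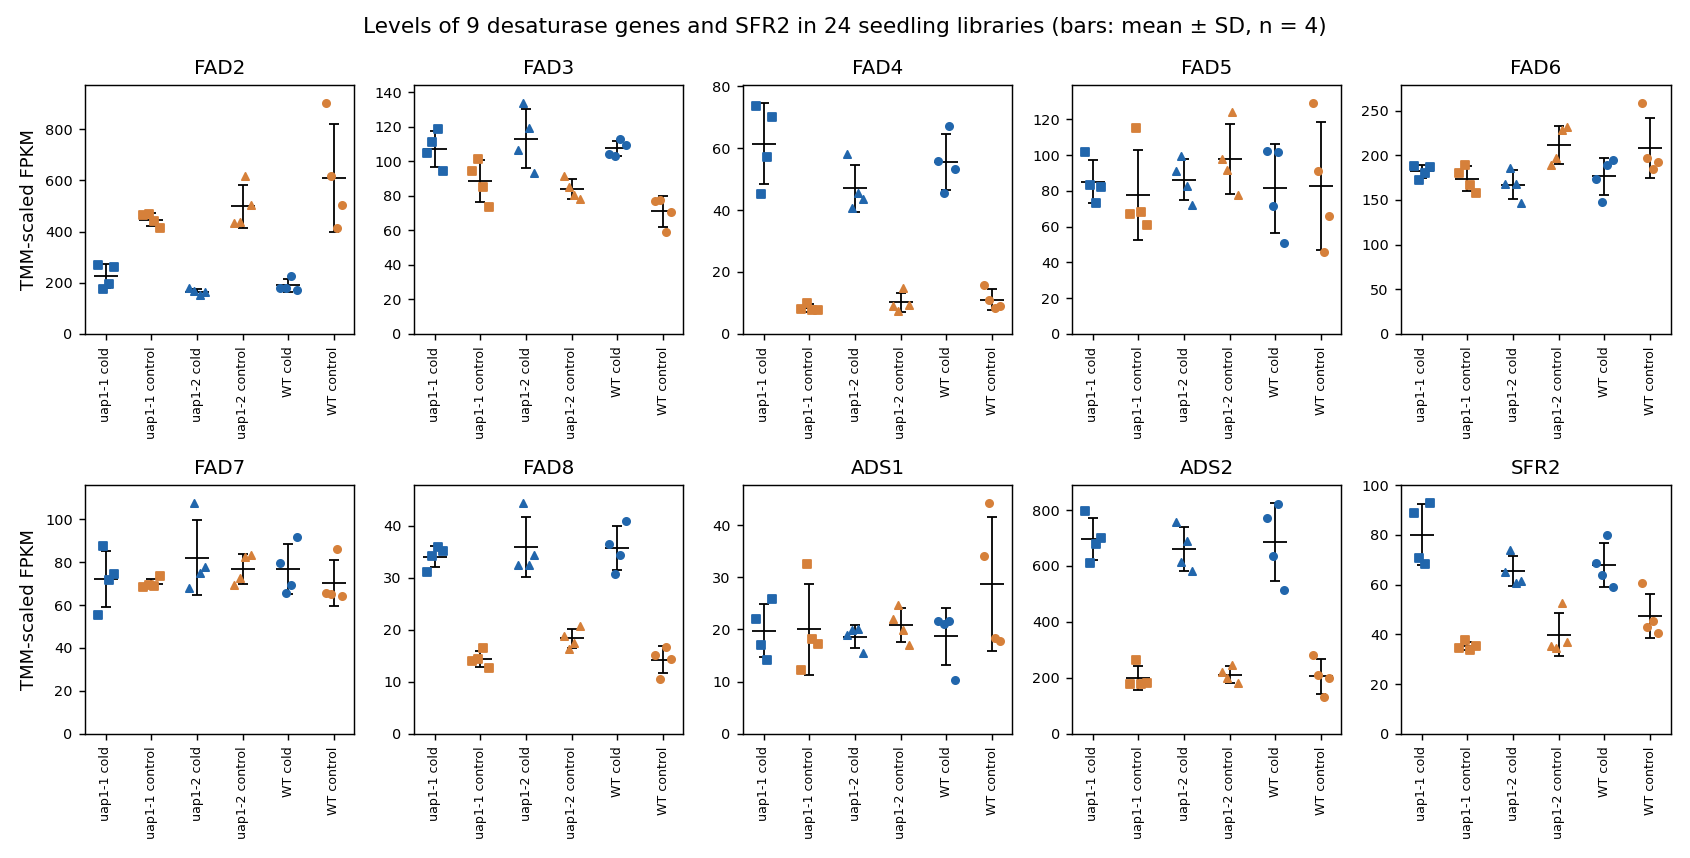
Level of each member in TMM-scaled FPKM (linear axes from 0) in the 24 libraries, 1 point a library, with cold in blue, control in orange and horizontal bars for mean ± SD of 4 libraries. Cold and control points are apart in every genotype for FAD2, FAD4, FAD8 and ADS2, and mixed for FAD5, FAD7 and ADS1.

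The first question the design poses is which of these genes changed in the cold. In uap1-1, 5 of 10 members were called by edgeR's quasi-likelihood test (adjusted p under 0.05, Benjamini-Hochberg over 21428 genes), 4 higher and 1 lower in the cold. Of all genes tested in uap1-1, 55.9% were called, 26.7% higher and 29.2% lower. In uap1-2, 7 of 10 were called, 5 higher and 2 lower, where 52.5% of all genes were called, 26.5% higher and 26% lower. In WT, 6 of 10 were called, 5 higher and 1 lower, where 54.2% of all genes were called, 25.8% higher and 28.4% lower. The number of members called is thus near the background, which lies between 52.5% and 55.9% in the 3 genotypes. The median log2 fold change over the 10 members was 0.20 in uap1-1, 0.26 in uap1-2 and 0.32 in WT, against −0.07, −0.01 and −0.06 over all genes tested. Every cold library was apart from every control library for 5 of 10 members in uap1-1, 7 in uap1-2 and 5 in WT, as it was for 48.2%, 48.3% and 43.9% of all genes. Without TMM the same test called 4 members higher and 2 lower in uap1-1, 4 higher and 2 lower in uap1-2 and 5 higher and 3 lower in WT. The shares above do not apply to that setting. Over all genes it called fewer higher and more lower than with TMM in each genotype, with the counts given in the closing section.

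In the endoplasmic reticulum, the oleate desaturase FAD2 and the linoleate desaturase FAD3 follow each other on phosphatidylcholine. FAD2 fell in the cold in all 3 genotypes. In uap1-1 it stood at 271, 177, 194 and 263 FPKM in the cold libraries, against 463, 469, 440 and 415 FPKM in the control libraries. In uap1-2 it stood at 178, 167, 150 and 165 FPKM in the cold libraries, against 434, 438, 617 and 502 FPKM in the control libraries. In WT it stood at 179, 179, 228 and 173 FPKM in the cold libraries, against 900, 615, 416 and 502 FPKM in the control libraries. Every cold library lay below every control library of its genotype, and the first WT control library was the highest of the series. The log2 fold change was −0.98 ± 0.20 in uap1-1, −1.59 ± 0.20 in uap1-2 and −1.68 ± 0.20 in WT (SE), with edgeR adjusted p of 1.96e-04, 5.67e-07 and 2.37e-07. A level 1.97-fold lower in uap1-1, 3.02-fold lower in uap1-2 and 3.21-fold lower in WT corresponds to these values.

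FAD3, which adds the third double bond to make linolenate, rose in uap1-2 and WT and did not pass the test in uap1-1. In uap1-1 it stood at 105, 111, 119 and 94.2 FPKM in the cold libraries, against 94.7, 102, 85.2 and 73.4 FPKM in the control libraries, and the groups overlapped. In uap1-2 it stood at 107, 134, 119 and 93.3 FPKM in the cold libraries, against 91.4, 85.0, 80.3 and 78.3 FPKM in the control libraries. In WT it stood at 105, 103, 113 and 109 FPKM in the cold libraries, against 77.0, 77.9, 58.8 and 70.6 FPKM in the control libraries. In uap1-2 and WT every cold library was above every control library, by a narrow margin in uap1-2. The log2 fold change was 0.44 ± 0.13 in uap1-2 (edgeR adjusted p = 0.00643) and 0.60 ± 0.13 in WT (edgeR adjusted p = 4.01e-04). In uap1-1 it was 0.28 ± 0.13 with a 95% interval of 0.01 to 0.54, and the edgeR adjusted p of 0.0706 missed the threshold. That result turned on single libraries, since the adjusted p was 0.0462 without the fourth uap1-1 cold library and 0.0331 without the second uap1-1 control library. With library totals in place of TMM the change in uap1-2 was 0.24 and no longer called (edgeR adjusted p = 0.1245).

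The plastid desaturases split into genes that moved in the cold and genes that did not pass the test. FAD4, which places a trans double bond in the palmitate of plastid phosphatidylglycerol, had the largest log2 fold change of the members in each genotype. In uap1-1 it stood at 73.5, 45.0, 57.1 and 70.0 FPKM in the cold libraries, against 7.92, 10.15, 7.86 and 7.69 FPKM in the control libraries. In uap1-2 it stood at 58.0, 40.7, 45.6 and 43.6 FPKM in the cold libraries, against 9.01, 7.51, 14.8 and 9.33 FPKM in the control libraries. In WT it stood at 55.7, 45.5, 67.3 and 53.4 FPKM in the cold libraries, against 15.8, 10.9, 8.36 and 8.88 FPKM in the control libraries. The lowest cold library of the series, at 40.7 FPKM, was above the highest control library, at 15.8 FPKM. The rise was 7.31-fold in uap1-1, 4.62-fold in uap1-2 and 5.05-fold in WT, with log2 values of 2.87 ± 0.23, 2.21 ± 0.22 and 2.34 ± 0.22 (SE) and edgeR adjusted p of 4.09e-10, 2.13e-08 and 8.45e-09. FAD4 is a gene with 1 coding exon on the plus strand of chromosome 4, at 13571813–13573070 (TAIR10). Its 3′ end, from 13572885, overlaps VP22-1 (AT4G27040) on the opposite strand, and whether reads were counted by strand is not known from the labels. VP22-1 itself had a log2 fold change in the cold of −0.13 in uap1-1, −0.20 in uap1-2 and −0.25 in WT, with edgeR adjusted p of 0.453, 0.257 and 0.155. Of the FAD4 gene, 9.11% of the 31-base words recur elsewhere in the genome, with 8.84% of all words of the gene between genes on chromosome 3. A part of its reads may therefore not be placed uniquely, and their part in the FAD4 values was not tested.

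FAD7 and FAD8 are the plastid omega-3 desaturases, closely related enzymes that turn dienoic into trienoic fatty acids, and FAD8 is known as the temperature-sensitive isozyme. Their coding sequences were identical at 80.7% of 1359 alignment columns, the highest identity among the 45 pairs of members. FAD8 rose in the cold in each genotype. In uap1-1 it stood at 31.2, 34.2, 35.9 and 35.1 FPKM in the cold libraries, against 14.1, 14.4, 16.5 and 12.7 FPKM in the control libraries. In uap1-2 it stood at 32.4, 44.4, 32.4 and 34.4 FPKM in the cold libraries, against 18.8, 16.4, 17.5 and 20.7 FPKM in the control libraries. In WT it stood at 36.6, 30.8, 34.4 and 40.9 FPKM in the cold libraries, against 15.1, 10.6, 16.7 and 14.5 FPKM in the control libraries. No control library of any genotype reached the lowest cold library. The log2 fold change was 1.24 ± 0.14 in uap1-1, 0.97 ± 0.14 in uap1-2 and 1.33 ± 0.14 in WT (SE), with edgeR adjusted p of 1.09e-07, 3.89e-06 and 4.15e-08.

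FAD7 did not pass the test in any genotype. Its libraries ran from 55.2 to 87.4 FPKM in the cold against 68.5 to 73.3 FPKM in control for uap1-1, from 67.9 to 108 FPKM against 69.4 to 83.2 FPKM for uap1-2, and from 65.7 to 91.8 FPKM against 64.5 to 86.4 FPKM for WT. The log2 fold change of FAD7 was 0.04, with a 95% interval of −0.27 to 0.36, in uap1-1. It was 0.09, with an interval of −0.23 to 0.41, in uap1-2, and 0.12, with an interval of −0.20 to 0.44, in WT. The upper bounds were below the lower bounds of FAD8, which were 0.95 in uap1-1, 0.68 in uap1-2 and 1.04 in WT. FAD8 made up 32.4 ± 3.3% of the summed FAD7 and FAD8 level in cold uap1-1 libraries, against 17.1 ± 1.85% in their controls. It made up 30.6 ± 1.3% in the cold against 19.3 ± 1.67% in control in uap1-2, and 31.9 ± 0.973% in the cold against 16.8 ± 2.17% in control in WT (SD, n = 4 each). The groups did not overlap in any genotype, and the two-sided exact permutation test gave p = 0.0286 for each, the smallest that 4 against 4 libraries allow. Adjusted over the 27 share comparisons computed, which were chosen after the data had been seen, each p was 0.0771.

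The promoters of this pair are shown because the coding parts are so alike and the cold values so unlike. Each line gives the RefSeq TAIR10.1 sequence in the direction of transcription, 250 bases before the annotated start and 50 bases from it on, and capitals mark any copy of the motifs CCGAC and ACGTG or of the longer AAAATATCT. FAD8 lies on chr5:1663790-1664089 (plus strand) and FAD7 on chr3:3499287-3499586 (plus strand) in this window.
FAD8: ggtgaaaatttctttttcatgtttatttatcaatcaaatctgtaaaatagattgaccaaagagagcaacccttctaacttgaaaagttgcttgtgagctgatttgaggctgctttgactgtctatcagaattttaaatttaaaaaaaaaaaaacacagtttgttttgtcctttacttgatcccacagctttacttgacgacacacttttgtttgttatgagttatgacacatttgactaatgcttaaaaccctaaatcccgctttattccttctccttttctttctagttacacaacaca
FAD7: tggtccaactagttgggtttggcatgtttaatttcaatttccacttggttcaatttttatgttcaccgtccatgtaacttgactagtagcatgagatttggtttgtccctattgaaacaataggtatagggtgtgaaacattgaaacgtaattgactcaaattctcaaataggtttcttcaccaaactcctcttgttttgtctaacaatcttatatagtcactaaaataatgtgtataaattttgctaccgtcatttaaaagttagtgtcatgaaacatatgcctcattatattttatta
Neither window holds CCGAC, the core letters of the element bound by the CBF cold factors, nor ACGTG, the core of the abscisic acid response element, nor AAAATATCT, the evening element, on either strand. Of the FAD8 gene, 16.1% of the 31-base words recur elsewhere in the genome, with 13.4% of all words of the gene in PAI1 on chromosome 1 and 2.72% in FAD7, so a part of its reads may not be placed uniquely. The FAD8 gene, at chromosome 5, 1664040–1666531 on the plus strand, also overlaps PAI2 (AT5G05590) on the opposite strand by its last bases from 1666471. PAI2 had 144–241 counts in the cold and 129–178 counts in control in uap1-1, where FAD8 had 868–1474 counts in the cold and 539–779 counts in control. PAI2 was called higher too, with a log2 fold change of 0.50 in uap1-1, 0.92 in uap1-2 and 0.40 in WT (edgeR adjusted p of 0.0117, 5.42e-05 and 0.0380). Its part in the FAD8 values was not tested.

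**Figure D2:**
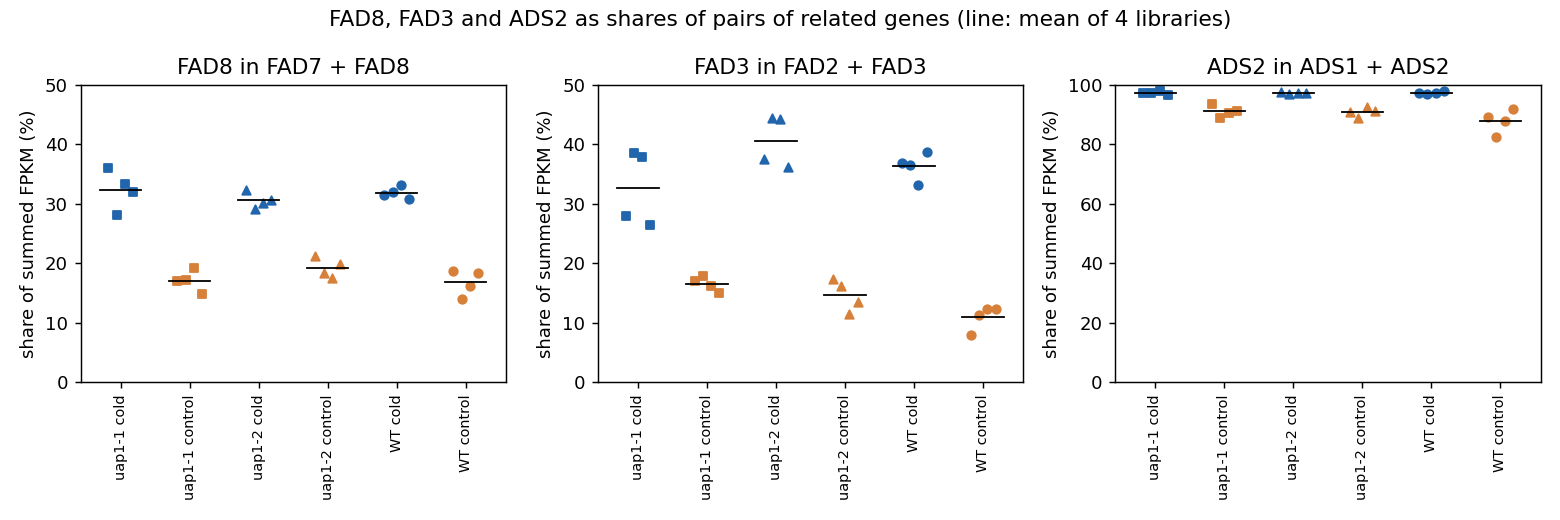
Share (%) of FAD8 in FAD7 plus FAD8, of FAD3 in FAD2 plus FAD3 and of ADS2 in ADS1 plus ADS2, from TMM-scaled FPKM, in each of 24 libraries (points; cold in blue, control in orange) with a line at the group mean. In all 3 panels the 4 cold libraries of a genotype lie above its 4 control libraries, for FAD8 at 28.1–36.1% in the cold and 14.0–21.3% in control.

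FAD6, the plastid counterpart of FAD2, had 173–188 FPKM in cold and 158–189 FPKM in control libraries of uap1-1, with a log2 fold change of 0.07 ± 0.13 (edgeR adjusted p = 0.663). In WT it had 148–195 FPKM in the cold and 184–258 FPKM in control, with −0.24 ± 0.13 (edgeR adjusted p = 0.116). In uap1-2 it fell, with 168, 186, 168 and 146 FPKM in the cold libraries against 189, 197, 228 and 232 FPKM in the control libraries. This log2 fold change of −0.34 ± 0.13 (edgeR adjusted p = 0.0277) lost its call on leaving out the third cold, the fourth cold, the third control or the fourth control library of uap1-2, with adjusted p between 0.0515 and 0.0958. With library totals in place of TMM, FAD6 was lower in the cold in all 3 genotypes, at −0.36 in uap1-1, where the direction turned, and at −0.42 in WT (edgeR adjusted p of 0.00780 and 0.00231). FAD5, which desaturates palmitate on monogalactosyldiacylglycerol, was at 73.1–102 FPKM in the cold and 60.9–115 FPKM in control in uap1-1, at 72.1–99.4 FPKM and 77.8–124 FPKM in uap1-2, and at 50.8–102 FPKM and 45.8–129 FPKM in WT. Its log2 fold changes of 0.13, −0.18 and −0.02 did not pass the test, and the widest of the 3 intervals, in uap1-2, was −0.72 to 0.37.

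ADS1 and ADS2 belong to the family of acyl desaturases related to the delta-9 enzymes of yeast and animals, and they lie in this family with FAD5. ADS2, which is known for its part in chilling and freezing tolerance, rose in the cold. In uap1-1 it stood at 795, 611, 680 and 701 FPKM in the cold libraries, against 177, 263, 176 and 181 FPKM in the control libraries. In uap1-2 it stood at 757, 612, 690 and 582 FPKM in the cold libraries, against 221, 198, 247 and 180 FPKM in the control libraries. In WT it stood at 773, 635, 821 and 514 FPKM in the cold libraries, against 282, 210, 131 and 199 FPKM in the control libraries. The highest control library, at 282 FPKM, lay below the lowest cold library, at 514 FPKM, and both were WT. The rise was 3.49-fold in uap1-1, 3.12-fold in uap1-2 and 3.33-fold in WT, with log2 values of 1.80 ± 0.20, 1.64 ± 0.20 and 1.74 ± 0.20 (SE) and edgeR adjusted p of 1.22e-07, 5.09e-07 and 2.06e-07.

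ADS1 did not pass the test, and its coefficient of variation between the libraries of a group reached 44.9%. Its coding sequence was identical to that of ADS2 at 76.8% of alignment columns. The cold libraries of ADS1 held 14.2–25.8 FPKM in uap1-1, 15.5–20.1 FPKM in uap1-2 and 10.4–21.7 FPKM in WT, against 12.2–32.5, 17.0–24.7 and 17.8–44.2 FPKM in the control libraries of uap1-1, uap1-2 and WT. The log2 fold change was −0.02 ± 0.30 in uap1-1, −0.17 ± 0.30 in uap1-2 and −0.62 ± 0.30 in WT (SE), where the edgeR adjusted p was 0.0850. In WT that result turned on single libraries, as it was −0.78 with an adjusted p of 0.0359 without the third WT control library and −0.79 with 0.0361 without the fourth. With library totals in place of TMM it was −0.78 in WT (edgeR adjusted p = 0.0120). ADS2 made up 97.2 ± 0.612% of the summed ADS1 and ADS2 level in cold uap1-1 libraries, against 91.1 ± 1.89% in their controls. In WT it made up 97.4 ± 0.507% in the cold, against 87.8 ± 3.86% in control (SD, n = 4 each).

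SFR2 rose in the cold in each genotype. In uap1-1 it stood at 88.7, 70.7, 68.5 and 92.8 FPKM in the cold libraries, against 34.7, 37.8, 33.6 and 35.3 FPKM in the control libraries. In uap1-2 it stood at 65.2, 73.9, 60.8 and 61.4 FPKM in the cold libraries, against 35.5, 34.5, 52.7 and 36.9 FPKM in the control libraries. In WT it stood at 68.6, 64.0, 80.0 and 59.1 FPKM in the cold libraries, against 60.6, 42.9, 45.3 and 40.7 FPKM in the control libraries. The groups were apart in both mutant lines, and in WT the first control library lay above the lowest cold library. The log2 fold change was 1.18 ± 0.15 in uap1-1, 0.71 ± 0.15 in uap1-2 and 0.52 ± 0.15 in WT (SE), with edgeR adjusted p of 9.72e-07, 4.54e-04 and 0.00608. The gene lies on chromosome 3, 2016246–2020103 (plus strand, 9 coding exons), and from 2019849 it overlaps AT3G06520 on the same strand, which had at most 130 counts in a library where SFR2 had at least 2178.

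SFR2 was the single member with CCGAC in its promoter window, and FAD2, which fell in the cold, was one of the pair with ACGTG, so both windows are shown. They lie at chr3:2015996-2016295 (plus strand) for SFR2 and chr3:3863201-3863500 (minus strand) for FAD2, and capitals mark these motifs alone.
SFR2: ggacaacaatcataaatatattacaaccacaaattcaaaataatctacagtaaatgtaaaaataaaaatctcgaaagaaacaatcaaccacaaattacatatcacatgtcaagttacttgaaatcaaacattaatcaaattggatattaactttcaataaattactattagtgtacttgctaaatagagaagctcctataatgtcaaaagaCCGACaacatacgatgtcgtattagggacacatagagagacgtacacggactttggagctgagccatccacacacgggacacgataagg
FAD2: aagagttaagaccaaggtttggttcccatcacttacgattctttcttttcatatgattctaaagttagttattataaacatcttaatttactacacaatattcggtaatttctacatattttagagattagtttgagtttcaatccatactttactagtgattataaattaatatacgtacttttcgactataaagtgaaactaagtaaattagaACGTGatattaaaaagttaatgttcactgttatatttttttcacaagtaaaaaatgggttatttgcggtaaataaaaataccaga
CCGAC stood 39 bases before the start of SFR2, and 14.9% of all 32546 promoter windows of this length hold it on either strand. ACGTG stood 35 bases before the start of FAD2 and 239 bases before that of FAD3, and 25.8% of all windows hold it. AAAATATCT was in the window of 0 of 10 members and in 2.64% of all windows. The shorter AATATC, which lies within AAAATATCT, was in the windows of FAD2, FAD5 and SFR2 and in 27.6% of all windows. FAD4, FAD8 and ADS2, which rose most in the cold, held none of these 4 motifs in this window.

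**Figure D3:**
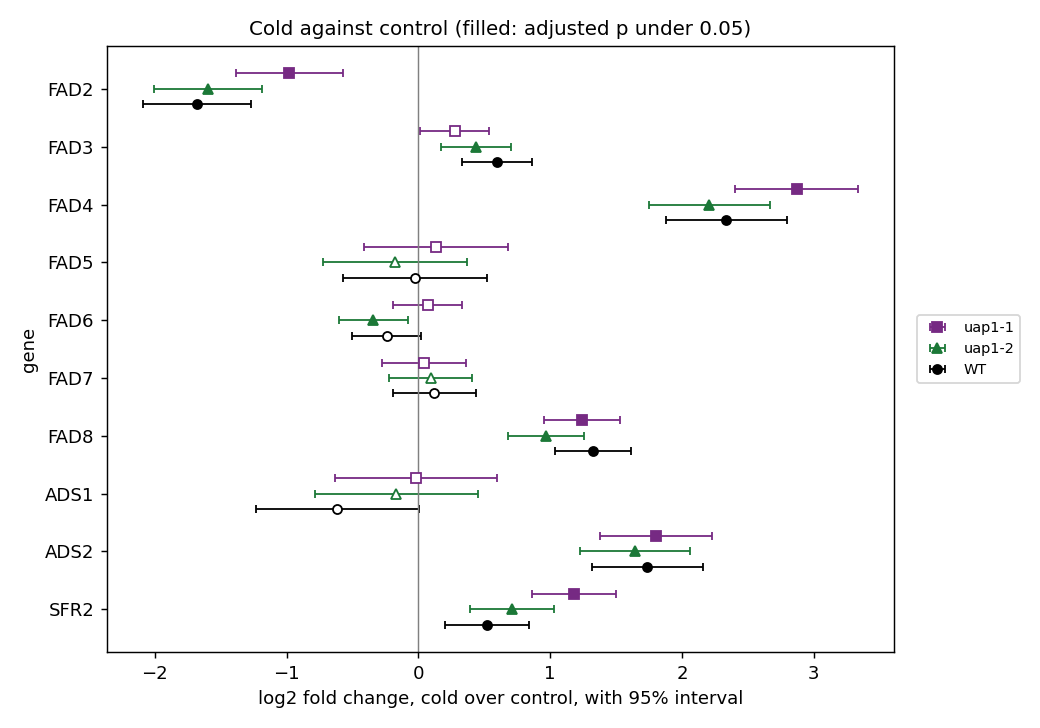
Log2 fold change of the 10 members, cold over control, in uap1-1 (squares), uap1-2 (triangles) and WT (circles), with 95% intervals from edgeR's fit; filled symbols have an adjusted p under 0.05. FAD4, FAD8, ADS2 and SFR2 lie right of 0 and FAD2 left of 0 in all 3 genotypes, from −1.68 for FAD2 in WT to 2.87 for FAD4 in uap1-1.

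The endoplasmic reticulum pair was also compared by the share of FAD3 in its summed level. FAD3 made up 32.7 ± 6.44% of the summed FAD2 and FAD3 level in cold uap1-1 libraries, against 16.5 ± 1.18% in their controls. In uap1-2 it made up 40.6 ± 4.38% in the cold against 14.7 ± 2.66% in control, and in WT 36.3 ± 2.31% in the cold against 11.0 ± 2.12% in control (SD, n = 4 each). The groups were apart in each genotype (two-sided exact permutation p = 0.0286, adjusted p = 0.0771 over the 27 share comparisons). Cold uap1-1 libraries fell into 2 values near 38% and 2 near 27%, which were the libraries with the higher FAD2 levels.

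The second question is whether the uap1 lines differed from WT in these genes. By edgeR, 0 of 10 members were called in uap1-1 against WT in control, where 0.00467% of all genes were called, and 3 members had an unadjusted p under 0.05, as did 9.15% of all genes. In uap1-2 against WT in control 0 of 10 members were called, where 0% of all genes were called, and 1 member had an unadjusted p under 0.05, as did 5.38% of all genes. In the cold 0 of 10 members were called for either line against WT, where 0% of all genes were called, and 0 members had an unadjusted p under 0.05, as did 2.71% of all genes in uap1-1 and 4.73% in uap1-2. DESeq2 and limma on log2(FPKM + 1) likewise called 0 members in each of these comparisons.

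The lowest unadjusted p in control belonged to SFR2 in uap1-1, at 35.3 ± 1.79 FPKM in uap1-1 against 47.4 ± 8.99 FPKM in WT (SD, n = 4 each). Its log2 fold change was −0.42 ± 0.15 (SE; edgeR adjusted p = 0.413), and the libraries were apart, at 33.6–37.8 FPKM in uap1-1 and 40.7–60.6 FPKM in WT, as they were for 5.34% of all genes. FAD3 had 88.7 ± 12.2 FPKM in uap1-1 and 71.1 ± 8.79 FPKM in WT without cold, a log2 fold change of 0.32 ± 0.13 (edgeR adjusted p = 0.448). FAD2 had 447 ± 24.6 FPKM in uap1-1 and 608 ± 211 FPKM in WT, −0.45 ± 0.19 (edgeR adjusted p = 0.492), and these groups overlapped. The share of FAD3 in this pair was 16.5 ± 1.18% in uap1-1 and 11.0 ± 2.12% in WT without overlap (two-sided exact permutation p = 0.0286, adjusted p = 0.0771). In uap1-2 against WT without cold, FAD8 had 18.3 ± 1.84 FPKM in uap1-2 and 14.2 ± 2.57 FPKM in WT, a log2 fold change of 0.37 ± 0.14 (edgeR adjusted p = 0.865). FAD3 was apart there, at 78.3–91.4 FPKM in uap1-2 and 58.8–77.9 FPKM in WT, as 1.68% of all genes were, with 0.24 ± 0.13 (edgeR adjusted p = 0.865).

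In the cold the members' log2 differences from WT were at most 0.26 in size in uap1-1 and 0.24 in uap1-2. The widest 95% interval, that of ADS1 in uap1-1, ran from −0.54 to 0.70. For ADS2 the interval was −0.39 to 0.43 in uap1-1 and −0.46 to 0.36 in uap1-2, and for FAD8 it was −0.35 to 0.22 in uap1-1 and −0.28 to 0.29 in uap1-2. No member was apart from WT in the cold in either line, as 1.45% of all genes were in uap1-1 and 3.71% in uap1-2.

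**Figure D4:**
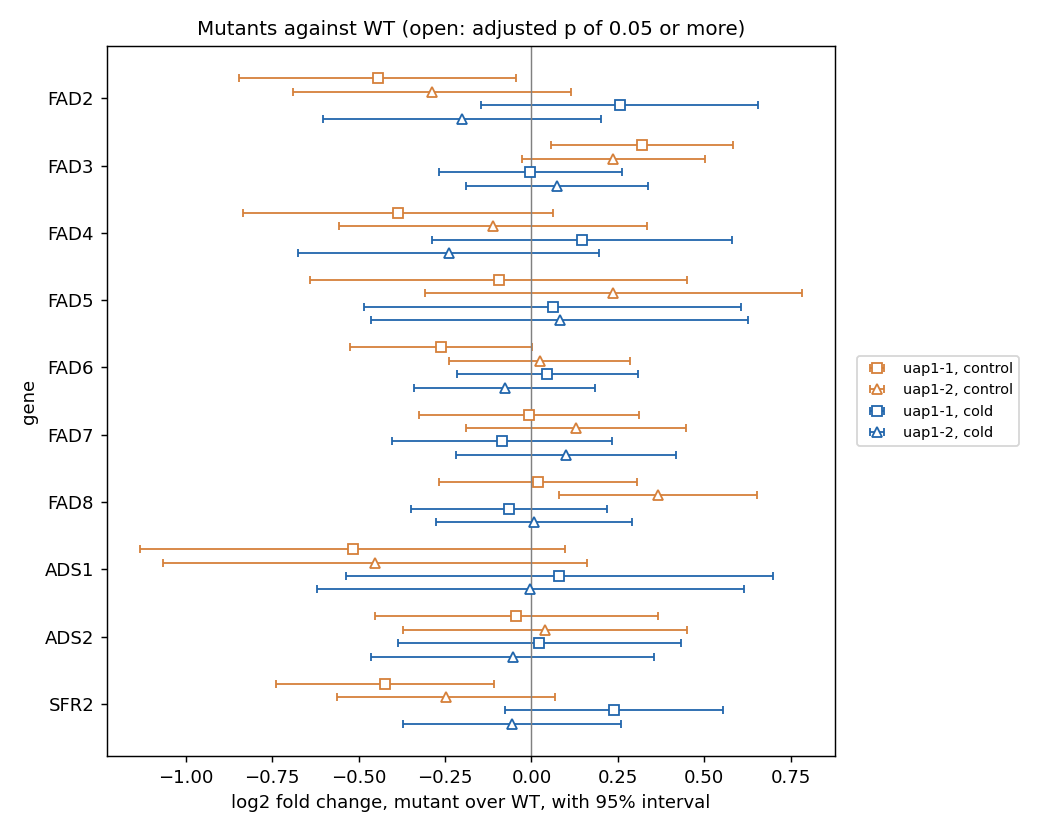
Log2 fold change of the 10 members, mutant over WT, for uap1-1 (squares) and uap1-2 (triangles) in control (orange) and cold (blue), with 95% intervals from edgeR's fit. All symbols are open, meaning an adjusted p of 0.05 or more, and the values lie between −0.52 for ADS1 in uap1-1 in control and 0.37 for FAD8 in uap1-2 in control.

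The difference between a line's cold response and that of WT was tested as an interaction. In both lines 0 of 10 members were called by edgeR, where 0% of all genes were called, and DESeq2 and limma on log2(FPKM + 1) also called 0 members. In uap1-1, 2 members had an unadjusted p under 0.05, as did 8.60% of all genes, and in uap1-2 there were 0, against 1.73% of all genes. For SFR2 the cold response of uap1-1 exceeded that of WT by 0.66 ± 0.22 on the log2 scale (95% interval 0.22 to 1.11; edgeR adjusted p = 0.481). For FAD2 the value was 0.70 ± 0.27 (95% interval 0.13 to 1.27; edgeR adjusted p = 0.501), so that the fall measured in uap1-1 was the smaller one. The WT groups enter both interactions, and the first WT control library was the highest of its group in FAD2, FAD4, ADS2 and SFR2. The TMM factor of that library was 0.866, against 0.994 to 1.18 in the rest of its group. On deposited FPKM the SD in WT control was 122 in place of 211 for FAD2 and 5.14 in place of 8.99 for SFR2. How far the scaling enters these differences was not tested. Between the lines, uap1-2 against uap1-1, edgeR called 0 of 10 members in control, where 0.00933% of all genes were called, and 0 of 10 in the cold, where 0% were. At an unadjusted p under 0.05 there were 2 members in control, FAD6 and FAD8, and 1 in the cold, FAD2, which had 165 ± 11.3 FPKM in uap1-2 and 226 ± 47.4 FPKM in uap1-1 (edgeR adjusted p = 0.442). Of all genes, 6.32% had an unadjusted p under 0.05 in control and 11.1% in the cold. No member was apart between the lines, as 5.01% of all genes were in control and 4.54% in the cold, and DESeq2 and limma called 0 members in either condition.

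The members also varied together within groups. After group means were removed, Pearson correlations of log2 CPM over the 24 libraries, given as a description, were highest for FAD5 with ADS2 at 0.93, FAD2 with FAD4 at 0.88, FAD2 with SFR2 at 0.81 and FAD4 with SFR2 at 0.79. Over all libraries without that step, FAD2 and FAD4 were at −0.82. The sign differed in this way for 19 of the 45 pairs, and 33 of 45 pairs were positive within groups. The 12 negative pairs each held FAD7 or FAD8, the lowest being FAD7 with ADS2 at −0.54 and FAD8 with ADS1 at −0.44, while FAD7 with FAD8 was at 0.64. The libraries of a correlation share their scaling and depth. Correlations of other gene pairs are not given beside these, so the values are not shown to be particular to the members. The part of the scaling was not tested.

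**Figure D5:**
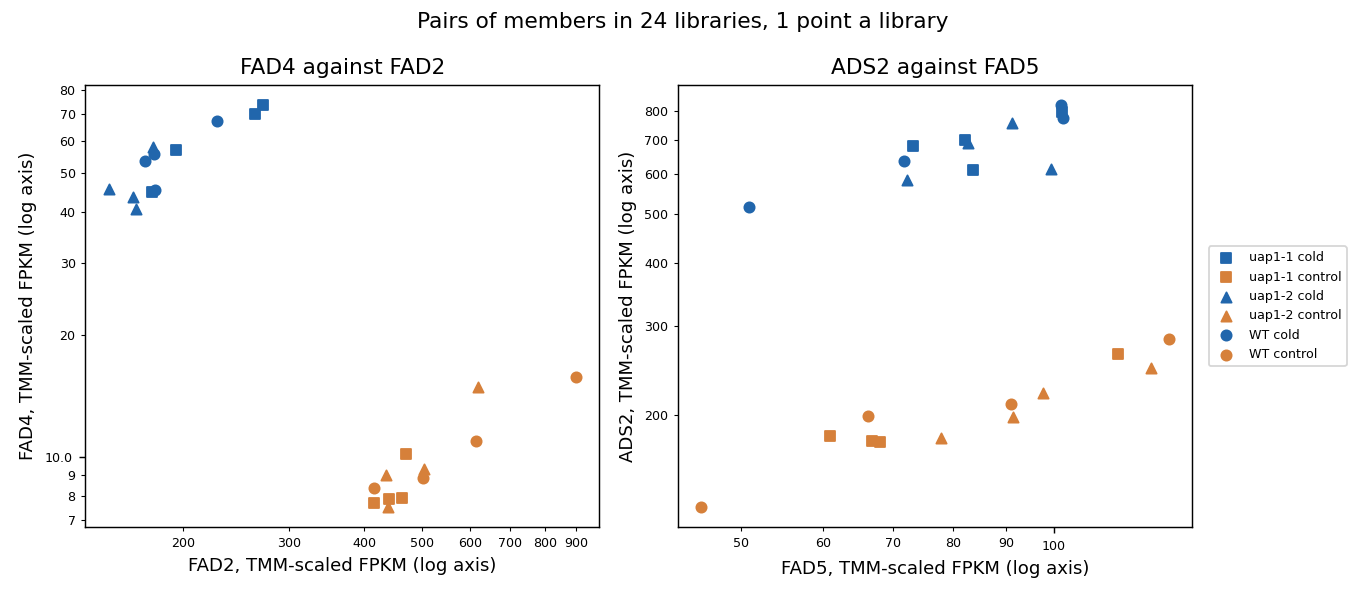
FAD4 against FAD2 and ADS2 against FAD5, both in TMM-scaled FPKM on log axes, 1 point for each of 24 libraries (cold in blue, control in orange; squares uap1-1, triangles uap1-2, circles WT). Within each condition the points climb from lower left to upper right, while cold and control form separate clouds; the within-group correlation is 0.88 for FAD2 with FAD4 and 0.93 for FAD5 with ADS2.

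By Pearson correlation of log2 CPM over the 24 libraries, the genes outside the members most like each member were as follows. Group means were not removed here, so these values also hold the difference between cold and control libraries. FAD2 was most like LHB1B1, a chlorophyll a-b binding protein, at 0.984 and CYP90A1 at 0.980. FAD4 was most like PDX13 and VTC2, which make vitamin B6 and ascorbate, both at 0.991. FAD8 was most like FTSZ1, of plastid division, at 0.978 and the nuclear pore gene NUP54 at 0.974. ADS2 was most like AT1G73650 at 0.993 and the sugar transporter SWEET2 at 0.989, and SFR2 most like OHP2 at 0.972 and AHL14 at 0.967. For FAD3 the values were 0.925 with RPL35B and 0.917 with AT5G04600. Among the other members, FAD5 reached 0.943 with AT5G41050 and 0.920 with PSRP6, FAD6 0.877 with ESP1 and 0.858 with YSL5, FAD7 0.851 with SBPASE and 0.832 with CAF1, and ADS1 0.835 with EXPA5 and 0.826 with XTH6.

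Around the members, 72 other lipid genes were followed in lists by role, and 67 of them were tested. In the cold edgeR called 23 higher and 13 lower in uap1-1, 22 higher and 16 lower in uap1-2 and 20 higher and 16 lower in WT. These were 36, 38 and 36 of 67, where 55.9%, 52.5% and 54.2% of all genes were called, so the number called is near the background. Of all genes, 26.7% were higher and 29.2% lower in uap1-1, 26.5% and 26% in uap1-2 and 25.8% and 28.4% in WT. The counts of single lists with TMM below are to be read against the same shares. The median log2 fold change of the lipid genes was 0.18, 0.01 and 0.05, against −0.07, −0.01 and −0.06 over all genes tested. With library totals in place of TMM, an alternative added after seeing the data, the counts were 15 higher and 26 lower in uap1-1, 15 and 25 in uap1-2 and 15 and 23 in WT. In each of the comparisons of a line with WT, 0 of 67 were called. At an unadjusted p under 0.05 there were 10 in uap1-1 and 4 in uap1-2 in control, where 9.15% and 5.38% of all genes were, and 1 in uap1-1 and 3 in uap1-2 in the cold, where 2.71% and 4.73% were. Of the differences between a line's cold response and that of WT, 0 of 67 were called, with 7 in uap1-1 and 0 in uap1-2 at an unadjusted p under 0.05, where 8.60% and 1.73% of all genes were.

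The list of galactolipid and sulfolipid synthesis, which makes the lipids on which SFR2 and FAD5 act, had 5 of 8 tested genes higher and 0 lower in each genotype. With library totals it had 2 higher in uap1-1, 3 in uap1-2 and 3 in WT, and 0 lower. DGD1, which makes digalactosyldiacylglycerol, rose with log2 fold changes of 1.65 in uap1-1, 1.60 in uap1-2 and 1.54 in WT (edgeR adjusted p of 1.45e-08, 2.68e-08 and 4.08e-08). MGD1, the main monogalactosyldiacylglycerol synthase, rose by 0.56, 0.49 and 0.58 in uap1-1, uap1-2 and WT, but lost its call in both lines with library totals. MGD3, an isoform known from phosphate starvation, rose by 2.76 ± 1.01 in uap1-1, 3.36 ± 1.04 in uap1-2 and 2.78 ± 1.01 in WT (SE). Among the soluble stearoyl-ACP desaturases, which make the oleate that FAD2 and FAD6 use, 2 of 7 rose and 3 of 7 fell in each genotype, although AAD1 lost its call in uap1-1 with library totals. FAB2, the main one in leaves, rose by 1.82 in uap1-1, 1.403 in uap1-2 and 1.504 in WT, while AAD6 fell, with log2 fold changes of −5.77, −5.36 and −4.89 (edgeR adjusted p of at most 1.56e-09 for both).

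The list of electron donors held 4 genes that fell in each genotype. In uap1-1 another 3 rose, but their difference from the WT response was not called for any of the 3 (edgeR adjusted p of 0.481 for FD2, 0.627 for FD1 and 0.906 for CBR1). With library totals the list had 1 higher and 6 lower in uap1-1, 0 and 5 in uap1-2 and 0 and 4 in WT. CB5-D, a cytochrome b5, fell, with log2 fold changes of −0.99 in uap1-1, −1.37 in uap1-2 and −1.46 in WT, and so did CB5-C, with −1.66, −1.48 and −1.89. The ferredoxin reductases LFNR1 and LFNR2 fell as well, with values between −0.66 and −0.88 in the 3 genotypes. The genes that rose in uap1-1, named after their values were seen, were FD2 at 0.78, FD1 at 0.50 and CBR1 at 0.39, and with library totals FD1 and CBR1 lost their call and CBR1 turned direction. Of 4 genes for plastid phosphatidate and phosphatidylglycerol, the lipid on which FAD4 acts, PGPP1 rose by 0.88 in uap1-1, 0.40 in uap1-2 and 0.66 in WT, and lost its call in uap1-2 with library totals. ATS2 and ATS1, the plastid acyltransferases, fell in each genotype, ATS2 with −0.79, −0.90 and −0.996. PGP1, of phosphatidylglycerol synthesis, fell in uap1-2 and WT, with −0.52 and −0.65.

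The list of phospholipid synthesis and editing in the endoplasmic reticulum had 5 of 11 genes higher and 0 lower in uap1-1, 6 and 0 in uap1-2, and 5 and 1 in WT. With library totals it had 4 higher and 4 lower in uap1-1, 5 and 2 in uap1-2 and 4 and 2 in WT. CCT2, of phosphatidylcholine synthesis, rose by 2.04 in uap1-1, 3.04 in uap1-2 and 2.92 in WT, and AAPT1 by 1.37, 1.29 and 1.35. LPCAT1, which exchanges acyl chains on phosphatidylcholine, rose by 0.80, 0.62 and 0.68. PLDALPHA1, DGAT1 and PLDDELTA made up 3 of 4 phospholipase D and storage genes that rose in each genotype, with PLDALPHA1 at 1.91, 1.54 and 1.44, although with library totals PLDDELTA lost its call in WT and 1 gene of the list was lower in uap1-2 and in WT. Of 13 genes of fatty acid synthesis and export, 2 rose and 2 fell in uap1-1, 2 rose and 3 fell in uap1-2, and 1 rose and 2 fell in WT. With library totals 1 rose and 7 fell in uap1-1, 0 rose and 7 fell in uap1-2, and 1 rose and 5 fell in WT. LACS9 rose by 0.74, 0.55 and 0.84 and FATA2 fell, with −1.15, −0.80 and −0.87, and with library totals LACS9 lost its call in both lines. Of 5 TGD genes of lipid transfer into the plastid, 0 rose and 1 fell in uap1-1, 2 in uap1-2 and 2 in WT, with TGD4 among them at −0.34, −0.35 and −0.43, and with library totals 2, 3 and 3 fell. SLD1, the sphingolipid desaturase that was tested, rose by 1.38 in uap1-1, 0.71 in uap1-2 and 0.90 in WT. Among 5 tested relatives of the ADS genes and FAD4, FAD4L2 fell, with −1.72, −1.44 and −1.55, and ADS4.2 rose, with 1.01, 0.84 and 0.65 in uap1-1, uap1-2 and WT.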

How the data were processed

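Per the labels' protocols, poly(A) RNA of whole seedlings was sequenced as paired ends. The authors deposited one table, which gives counts and FPKM per gene for every library. Named in the submitters' processing notes, without roles, are the build TAIR10, HISAT2 2.2.1, HTSeq 0.6.1, StringTie 1.3.3b, DESeq2 1.26.0, cutadapt 1.9.1, SAMtools 0.1.19, bcl2fastq 2.20.0.422 and FastQC 0.10.1. The deposited counts are raw whole numbers. The deposited FPKM values equal count over exonic length and library total within 0.005, and were divided here by each library's TMM factor. The treatment of reads with several placements is not known from the labels.

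Counts were tested with edgeR 4.0.16 in R 4.3.3 (filterByExpr with a minimum count of 10 and total of 15, TMM, 6 group means over all 24 libraries, glmQLFit and glmQLFTest, prior count 0.125). P-values were adjusted by Benjamini-Hochberg over 21428 genes and called under 0.05. Standard errors were taken as log2 fold change divided by √F. Cold was compared with control in each genotype, each line with WT in each condition, the lines with each other, and the cold responses as interactions. The test was tried on simulated counts. Alternatives were library totals, no filter, a replicate block, the compared groups alone, DESeq2 1.42.0, limma 3.58.1 on log2(FPKM + 1) or log2(FPKM + 0.1), and leaving out each library.

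The replicate numbers are not stated to mark a batch. Same-numbered libraries deviated together in every pair only for uap1-2 against uap1-1 in the cold (correlations of 0.233 to 0.536), where the block also called 0 members, so the fit has no block. All 10 members are named, of other lists up to 4 called genes with the smallest adjusted p per comparison, and 2 genes of like pattern per member. The members and lists were chosen with earlier results of these data known. Promoters are RefSeq sequence of TAIR10.1, on which 99.951% of 32548 loci of the table have the same coordinates, all 10 members included.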

Additional observations from a re-analysis of the deposited data

Results flagged for a closer look

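In 8 of 60 sets of 4 libraries (a member in a group), 1 library lay far from the other 3 by Dixon's test, where chance gives about 1 in 20. Values are TMM-scaled FPKM. Of the 8, 3 came from the second uap1-1 control library, which held 10.1466 for FAD4 (7.69–7.92 in the other 3), 115.224 for FAD5 (60.9–68.0) and 263.421 for ADS2 (176–181). The third WT cold library held 227.623 for FAD2, above 173–179 in the others, and the fourth WT cold library held 10.4001 for ADS1, below 21.0–21.7 in the others. The third WT control library held 86.374 for FAD7, above 64.5–65.5. In uap1-2, the second cold library held 44.3705 for FAD8, above 32.4–34.4, and the third control library held 52.7495 for SFR2, above 34.5–36.9. The TMM factor was 0.986 in the second uap1-1 control library (1.21–1.24 in its group otherwise) and 0.989 in the third uap1-2 control library (1.13–1.17 otherwise). On deposited FPKM the SD of FAD4 in uap1-1 control was 0.289 in place of 1.17. That of SFR2 in uap1-2 control was 5.98 in place of 8.61. Dixon's test was not run on deposited FPKM, and the part of the scaling in these flags was not tested. The cold call of each flagged gene in its own genotype was the same without the library named for it. ADS1 in WT was called lower without the third WT control library, the one named for FAD7 (−0.78, edgeR adjusted p = 0.0359).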

How the results depend on the processing

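The count of called members stayed within 1.5 times under every alternative: 5 to 6 in uap1-1, 6 to 7 in uap1-2 and 6 to 7 in WT on leaving out 1 library for the cold, and 0 to 0 in all comparisons of genotypes and responses. Of the members' fold changes, FAD6 in uap1-1 reversed, at −0.36 with library totals, −0.35 with limma on log2(FPKM + 1) and −0.35 with limma on log2(FPKM + 0.1). With library totals the median over all genes in the cold (log2) was −0.50 in uap1-1, −0.20 in uap1-2 and −0.27 in WT, against −0.07, −0.01 and −0.06 with TMM, and the calls were 3387 higher of 13132, 4198 higher of 11196 and 4109 higher of 11615, against 5720 of 11971, 5682 of 11245 and 5528 of 11619 with TMM. With limma on log2(FPKM + 1) FAD6 and ADS1 were called lower in WT and FAD3 in uap1-2 lost its call. The replicate block kept 7 members in uap1-2 and 6 in WT and called 6 in uap1-1, adding FAD3 (edgeR adjusted p = 0.04996), as did DESeq2 (its adjusted p = 0.0232); the numbers are not shown to pair these libraries. DESeq2 called 31 genes of all tested in uap1-1 against WT in control, where edgeR called 1, and 23 against 2 between the lines in control, but 0 members. On the deposited FPKM without TMM, 44 of 60 group levels moved by less than 1 SD and 16 by more. The lowest count of a member in a library was 232. The causes were not tested.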
